A study of Mus musculus with 16 samples.

Results

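The 5 genes described here, Enpp3, Nt5e, Ada, Pnp and Xdh, encode enzymes that break down purine nucleotides one after the other and are named here after the villus tip, where enterocytes of mice are known to express purine breakdown genes. They were taken by gene symbol from a table of 20072 mouse genes. Each symbol had 1 entry, and all 5 passed the filter on low values with 14089 genes in all. RNA was sequenced from sorted small-intestinal epithelium of untreated Tph1-CFP mice aged 8 to 16 weeks, a reporter strain in which cyan fluorescent protein marks cells with an active Tph1 gene, the gene for the first enzyme of serotonin synthesis. There were 4 groups of 4 libraries each, with 5000 pooled cells per library: CFP-positive enterochromaffin cells of the villus (villus EC), CFP-negative epithelial cells of the villus (villus epi), CFP-positive cells of the crypt (crypt EC) and CFP-negative cells of the crypt (crypt epi). All 4 groups carry the reporter, so the sort rests on Tph1 activity, and the CFP-negative groups mix all other epithelial cell types. The villus fraction was not divided into tip and base, so these libraries do not place a transcript at the tip.

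Enterochromaffin cells are the serotonin-releasing endocrine cells of the gut lining, and enterocytes are its absorptive cells, which mature as they move up the villus. ENPP3 is a membrane enzyme that cleaves nucleotides outside the cell to nucleoside monophosphates, and NT5E, also called CD73, turns AMP at the cell surface into adenosine, a signal read by adenosine receptors. ADA turns adenosine into inosine, PNP splits inosine and guanosine into hypoxanthine and guanine, and XDH oxidises hypoxanthine to xanthine and then to urate. Purines from food, shed cells and bacteria pass through such enzymes in the intestinal lining.

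Levels are given in the FPKM that the authors deposited, which divide the fragments of a gene by transcript length and library size. The values are thus per length, so levels of different genes can be set side by side. The values summed to between 731415 and 1415120 per library, and 11318 to 13071 genes reached 1 FPKM in a library. Every EC library summed to less than every epi library, with 731415 to 901567 in EC and 1045160 to 1415120 in epi. The size of differences between EC and epi thus depends on the scaling between libraries, which the sources do not name. No counts were used here, so the sequencing depth behind each value is unknown. The 7 EC markers summed to 84411 to 124324 FPKM in villus EC and 86293 to 108691 FPKM in crypt EC, against 368 to 483 FPKM in villus epi and 1366 to 1898 FPKM in crypt epi. The crypt epi sum was mostly Reg4, at a mean of 1643 FPKM, and the other 6 EC markers had lower means in crypt epi than in villus epi. The 15 enterocyte markers summed to 1903 to 2897 FPKM in villus EC, 102528 to 152528 FPKM in villus epi, 512 to 1427 FPKM in crypt EC and 3288 to 9601 FPKM in crypt epi. Among these libraries 3 stood apart. Villus epi replicate 2 had 130 FPKM of the fibroblast gene Dcn, against 0.197 to 1.46 FPKM in the other 3 villus epi libraries, and 24.6 FPKM of the leukocyte gene Ptprc, against 1.06 to 1.69 FPKM. The enterocyte marker sum of villus epi replicate 2 was the lowest of its group, 102528 FPKM against 124728 to 152528 FPKM. Crypt EC replicate 1 had the lowest enterocyte marker sum of its group, 512 FPKM against 1117 to 1427 FPKM, and the lowest EC marker sum. Crypt epi replicate 3 had the lowest enterocyte marker sum of its group, 3288 FPKM against 9545 to 9601 FPKM, and leaving it out changed no call of the 5 genes. Results that rest on the first 2 of these libraries are given with and without them. In such bulk libraries, fewer cells of a type and less RNA per cell cannot be told apart.

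In mm10 the genes lie on 5 chromosomes. Enpp3 (ENSMUSG00000019989) spans chr10:24772406-24842823 on the minus strand with 25 exons in its longest coding transcript. Nt5e (ENSMUSG00000032420) spans chr9:88327197-88372092 on the plus strand with 9 exons. Ada (ENSMUSG00000017697) spans chr2:163726584-163750239 on the minus strand with 12 exons. Pnp (ENSMUSG00000115338) spans chr14:50931082-50965237 on the plus strand with 6 exons, and Xdh (ENSMUSG00000024066) spans chr17:73883895-73950196 on the minus strand with 36 exons. The annotated span of Pnp holds Pnp2, a near-identical gene on the same strand, so the division of reads between them is uncertain. Pnp2 did not exceed 2.40 FPKM in any library.

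The RefSeq promoter table for GRCm38.p6 held 4 of the 5 genes. The 250 bases before the annotated start are printed for Nt5e, the gene that ran opposite to the rest between EC and epi cells. They are also printed for Enpp3 and Ada, the pair among the 5 whose levels varied most alike across the libraries. They are given 5′ to 3′ on the strand of the gene. Capitals mark matches on either strand to 5 short motifs: CAAAGT (known as part of the site of HNF4 receptors), AGATAA (known for GATA factors), TTTATG together with its variant TTTATT (CDX factors), CACCC (KLF factors) and TATAAA (the TATA box).
Nt5e, chr9:88327359-88327608, plus strand: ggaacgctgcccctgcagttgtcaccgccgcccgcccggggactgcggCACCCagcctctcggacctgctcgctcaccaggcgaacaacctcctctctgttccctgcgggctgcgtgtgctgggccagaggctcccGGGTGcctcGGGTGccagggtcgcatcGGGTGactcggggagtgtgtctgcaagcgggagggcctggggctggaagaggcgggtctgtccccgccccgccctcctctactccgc
Enpp3, chr10:24836196-24836445, minus strand: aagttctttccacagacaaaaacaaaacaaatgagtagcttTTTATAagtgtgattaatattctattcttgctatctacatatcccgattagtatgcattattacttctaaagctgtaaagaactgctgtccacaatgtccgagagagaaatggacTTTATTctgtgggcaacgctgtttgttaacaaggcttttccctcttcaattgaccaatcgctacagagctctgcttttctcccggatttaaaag
Ada, chr2:163750240-163750489, minus strand: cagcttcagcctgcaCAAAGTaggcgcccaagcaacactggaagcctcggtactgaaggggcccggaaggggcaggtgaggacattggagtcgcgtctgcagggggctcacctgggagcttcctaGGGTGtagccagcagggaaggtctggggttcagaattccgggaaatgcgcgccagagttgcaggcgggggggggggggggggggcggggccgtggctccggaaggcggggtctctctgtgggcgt
The windows differed in base composition. G and C made up 72.0% of the Nt5e window and 67.2% of the Ada window, but 36.8% of the Enpp3 window, around a median of 52.4% over 32851 RefSeq windows. The Nt5e window held CACCC 4 times, 3 of them on the opposite strand, a motif present in 52.0% of all windows. The Ada window held CACCC once, on the opposite strand, and CAAAGT once, which 12.6% of all windows hold. The Enpp3 window held TTTATT once, a motif pair found in 25.5% of windows, and TATAAA once on the opposite strand, found in 12.4%. The Pnp window, with 46.8% G and C, held TTTATT once. None of the 4 windows held AGATAA, which 9.99% of windows hold. These are matches of letters and not measured binding sites. No 2 matches shared a base. The Enpp3 and Nt5e windows lie inside the gene spans given above, which begin farther upstream.

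Enpp3, which acts first on extracellular nucleotides, was lower in EC than in epi cells at both sites and higher in the villus than in the crypt in both cell types. Its level was 68.6, 98.3, 102 and 79.7 FPKM in villus EC, against 1098, 659, 811 and 837 FPKM in villus epi. In the crypt it was 4.59, 12.2, 14.2 and 11.7 FPKM in EC, against 67.6, 59.9, 55.4 and 53.8 FPKM in epi. The 4 groups did not overlap, and their order was villus epi, villus EC, crypt epi, crypt EC. The group means were 87.2 ± 15.9 FPKM in villus EC, 851 ± 182 FPKM in villus epi, 10.7 ± 4.21 FPKM in crypt EC and 59.2 ± 6.15 FPKM in crypt epi (SD, n = 4 each). On the log2(FPKM + 1) scale, Enpp3 fell by 3.27 ± 0.26 in villus EC against villus epi (SE, limma adjusted p = 2.642e-08) and by 2.46 ± 0.26 in crypt EC against crypt epi (adjusted p = 1.62e-06). All 4 EC libraries lay below all 4 epi libraries at each site. The villus level was higher than the crypt level by 2.99 ± 0.26 in EC (adjusted p = 5.893e-07) and by 3.81 ± 0.26 in epi (adjusted p = 7.349e-09).

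Nt5e, which makes adenosine from AMP, had the opposite cell type: it was higher in EC than in epi cells at both sites. It stood at 476, 494, 519 and 485 FPKM in villus EC, against 53.3, 16.1, 14.1 and 10.4 FPKM in villus epi. In the crypt it stood at 11.3, 120.2, 126 and 132 FPKM in EC, against 0.740, 0.565, 0.754 and 0.461 FPKM in epi. Villus EC lay above every other library, and crypt epi below every other library. Crypt EC and villus epi overlapped through crypt EC replicate 1 at 11.3 FPKM, which lay below 3 of the 4 villus epi libraries. The group means were 493 ± 18.3 FPKM in villus EC, 23.5 ± 20.0 FPKM in villus epi, 97.4 ± 57.6 FPKM in crypt EC and 0.630 ± 0.142 FPKM in crypt epi. Nt5e rose by 4.63 ± 0.63 on the log2 scale in villus EC against villus epi (adjusted p = 1.08e-05) and by 5.45 ± 0.63 in crypt EC against crypt epi (adjusted p = 4.236e-06). Like Enpp3, it was higher in the villus than in the crypt in both cell types, by 2.80 ± 0.63 in EC (adjusted p = 0.003511) and by 3.62 ± 0.63 in epi (adjusted p = 0.0001539). Crypt EC replicate 1 set the size of 2 of these differences. Without it, Nt5e was higher by 6.29 ± 0.37 in crypt EC against crypt epi (adjusted p = 7.997e-09) and by 1.96 ± 0.37 in villus EC against crypt EC (adjusted p = 0.001499). The differences that include villus epi, with its high replicate 1 at 53.3 FPKM, varied with single libraries left out. They ranged from 4.36 to 5.11 in villus EC against villus epi, and from 3.14 to 3.89 in villus epi against crypt epi. The villus EC against crypt EC call also depended on the model. With all libraries, grouped in the fit by the number in their names, Nt5e missed the threshold there (2.90 ± 0.89, adjusted p = 0.0753).

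Ada, which removes adenosine, had the steepest villus to crypt difference of the 5 genes in epi cells, the group where it was highest. It measured 11.3, 32.8, 37.5 and 10.8 FPKM in villus EC, against 682, 479, 255 and 339 FPKM in villus epi. In the crypt it measured 2.81, 3.13, 3.03 and 3.54 FPKM in EC, against 6.69, 5.52, 6.18 and 4.52 FPKM in epi. No 2 groups overlapped, and the order was villus epi, villus EC, crypt epi, crypt EC, as for Enpp3. The group means were 23.1 ± 14.02 FPKM in villus EC, 439 ± 187 FPKM in villus epi, 3.13 ± 0.307 FPKM in crypt EC and 5.73 ± 0.937 FPKM in crypt epi. In villus EC against villus epi, Ada fell by 4.30 ± 0.37 (adjusted p = 6.495e-08). In crypt EC against crypt epi the difference was -0.70 ± 0.37 and missed the threshold (adjusted p = 0.1472), although all 4 EC libraries lay below all 4 epi libraries. That comparison passed when only its own 2 groups entered the fit (adjusted p = 0.001387). The level was higher in villus than in crypt by 2.34 ± 0.37 in EC (adjusted p = 0.0002068) and by 5.94 ± 0.37 in epi (adjusted p = 2.747e-09).

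Pnp, the next enzyme, varied least. Its level was 35.0, 36.7, 38.6 and 46.6 FPKM in villus EC, against 183, 187, 159 and 154 FPKM in villus epi. In the crypt it was 31.4, 30.2, 34.9 and 30.0 FPKM in EC, against 68.8, 65.1, 77.9 and 61.5 FPKM in epi. Villus EC and crypt EC lay next to each other without overlap, 35.0 FPKM being the lowest villus EC library and 34.9 FPKM the highest crypt EC library. The means were 39.2 ± 5.11 FPKM in villus EC, 171 ± 16.7 FPKM in villus epi, 31.6 ± 2.26 FPKM in crypt EC and 68.3 ± 7.04 FPKM in crypt epi. Pnp fell by 2.10 ± 0.12 in villus EC against villus epi (adjusted p = 5.669e-10) and by 1.08 ± 0.12 in crypt EC against crypt epi (adjusted p = 2.377e-06). Between villus and crypt it was higher in epi, by 1.31 ± 0.12 (adjusted p = 1.764e-07), while the difference of 0.29 ± 0.12 in EC missed the threshold (adjusted p = 0.08444). The EC difference passed without villus epi replicate 2, a library it does not contain and that only enters the shared spread (adjusted p = 0.02337).

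Xdh, the last enzyme of the chain, was low in EC libraries and had the largest difference between the cell types of the villus among the 5 genes. It was measured at 2.67, 13.5, 8.08 and 2.28 FPKM in villus EC, against 1059, 173, 870.2 and 853 FPKM in villus epi. In the crypt it was measured at 3.09, 2.34, 1.32 and 2.06 FPKM in EC, against 33.4, 36.5, 39.4 and 31.4 FPKM in epi. EC and epi did not overlap at either site, while villus EC and crypt EC did. The means were 6.63 ± 5.29 FPKM in villus EC, 739 ± 388 FPKM in villus epi, 2.20 ± 0.728 FPKM in crypt EC and 35.2 ± 3.54 FPKM in crypt epi. Xdh fell by 6.59 ± 0.53 in villus EC against villus epi (adjusted p = 2.844e-08) and by 3.52 ± 0.53 in crypt EC against crypt epi (adjusted p = 5.746e-05). In epi it was higher in villus than in crypt by 4.08 ± 0.53 (adjusted p = 8.316e-06), and in EC the difference was 1.01 ± 0.53 (adjusted p = 0.1939). Villus epi replicate 2 was the low library at 173 FPKM, where Dcn and Ptprc stood high. Most of the 15 enterocyte markers were also lowest there within villus epi. Apoa1 was 16897.5 FPKM, against 52257 to 64407.5 FPKM in the other villus epi libraries, and Apob was 53.7 FPKM, against 1175 to 1524 FPKM. Alpi, Fabp1 and Slc5a1 went the other way and were highest there, with Alpi at 7739 FPKM, against 3599 to 3783 FPKM. The part of other cells in the Xdh value of that library was not tested. Without that library, Xdh fell by 7.19 ± 0.39 in villus EC against villus epi (adjusted p = 1.449e-10), was higher by 4.68 ± 0.39 in villus epi against crypt epi (adjusted p = 3.061e-08), and the EC difference of 1.01 ± 0.36 passed the threshold (adjusted p = 0.03111).

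**Figure D1:**
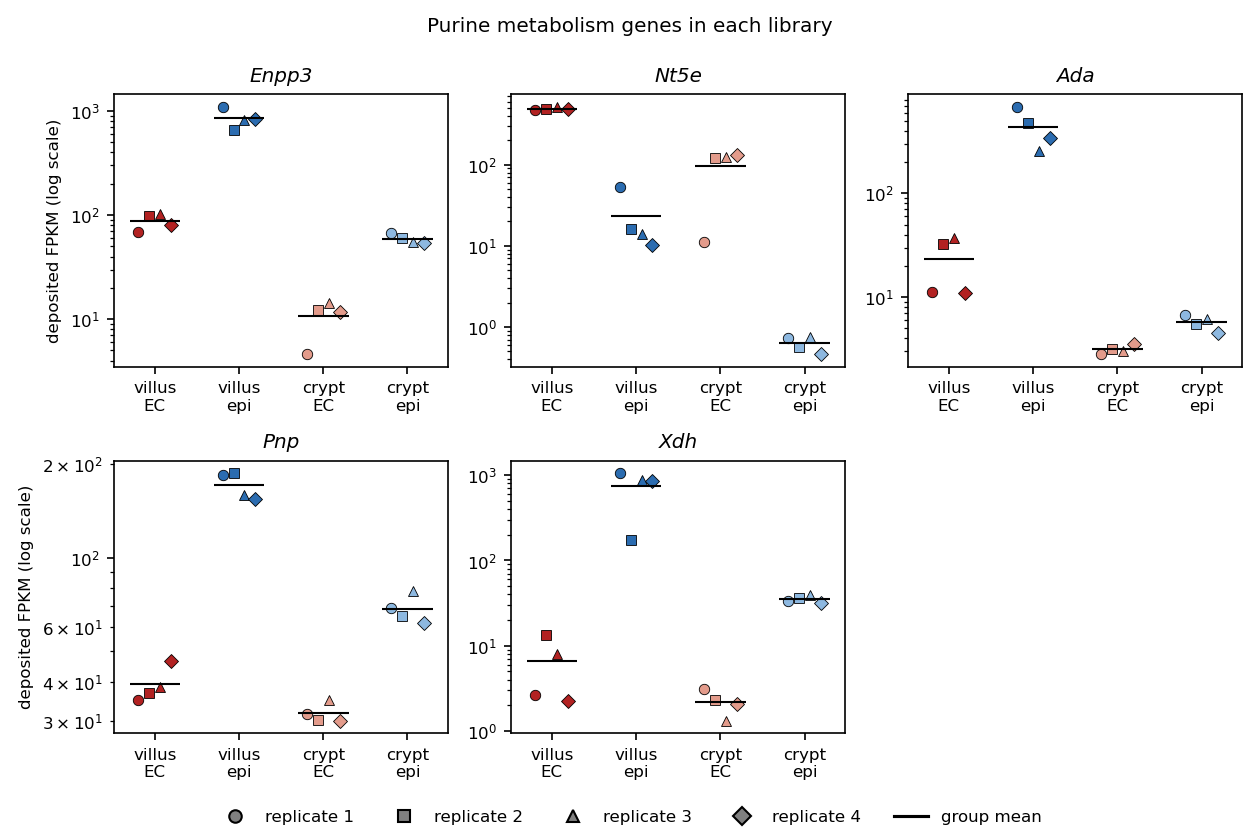
Deposited FPKM (log scale) of Enpp3, Nt5e, Ada, Pnp and Xdh in each of the 16 libraries, with a panel for each gene; symbols stand for replicates and black lines for group means. Nt5e is highest in villus EC at 476 to 519 FPKM, and the other 4 genes are highest in villus epi.

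Set against all genes, the villus comparison of cell types called 62.2% of the 14089 genes tested, 40.6% higher and 21.6% lower in villus EC against villus epi. Of the 5 genes, 1 was higher and 4 were lower, with a median log2 difference of -3.27 where the median of all genes was 0.33. In crypt EC against crypt epi, 43.2% of genes were called, 23.2% higher and 20.0% lower. There, 1 of the 5 was higher, 3 were lower and Ada was not called, with a median of -1.08 against 0.05 for all genes. Nt5e was the higher gene in both comparisons: at each site, every EC library held more Nt5e than every epi library, the cells that include the enterocytes.

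In epi cells the 5 genes were higher in the villus than in the crypt. In villus epi against crypt epi, all 5 rose, with a median of 3.81, where 55.0% of all genes were called, 19.6% higher and 35.4% lower, with a median of -0.19. In villus EC against crypt EC, Enpp3, Nt5e and Ada rose, none of the 5 fell, and Pnp and Xdh were not called, with a median of 2.34. In that comparison 26.5% of all genes were called, 10.3% higher and 16.2% lower, with a median of -0.05. The comparisons share libraries: each group enters 2 of them. Of 10 other genes listed as villus tip genes, 6 were higher and 2 lower in villus epi against crypt epi.

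Whether the villus to crypt difference itself differed between the cell types was tested as an interaction, the difference in EC minus the difference in epi, which called 42.9% of genes tested, 26.9% higher and 16.0% lower. The difference was smaller in EC than in epi for 3 of the 5 genes: Ada (-3.60 ± 0.52, adjusted p = 5.522e-05), Xdh (-3.07 ± 0.75, adjusted p = 0.003708) and Pnp (-1.01 ± 0.17, adjusted p = 0.0001781). For the surface enzymes the interaction missed the threshold, at -0.81 ± 0.37 for Enpp3 (adjusted p = 0.08938) and -0.82 ± 0.89 for Nt5e (adjusted p = 0.4914). Without crypt EC replicate 1, the interaction was -1.13 ± 0.24 for Enpp3 (adjusted p = 0.001865) and -1.66 ± 0.50 for Nt5e (adjusted p = 0.01718). For Enpp3 it also passed without villus epi replicate 2, at -0.93 ± 0.36 (adjusted p = 0.03566). For Nt5e the sign depended on the pseudocount, since adding 5 instead of 1 gave 0.56 (adjusted p = 0.599).

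**Figure D2:**
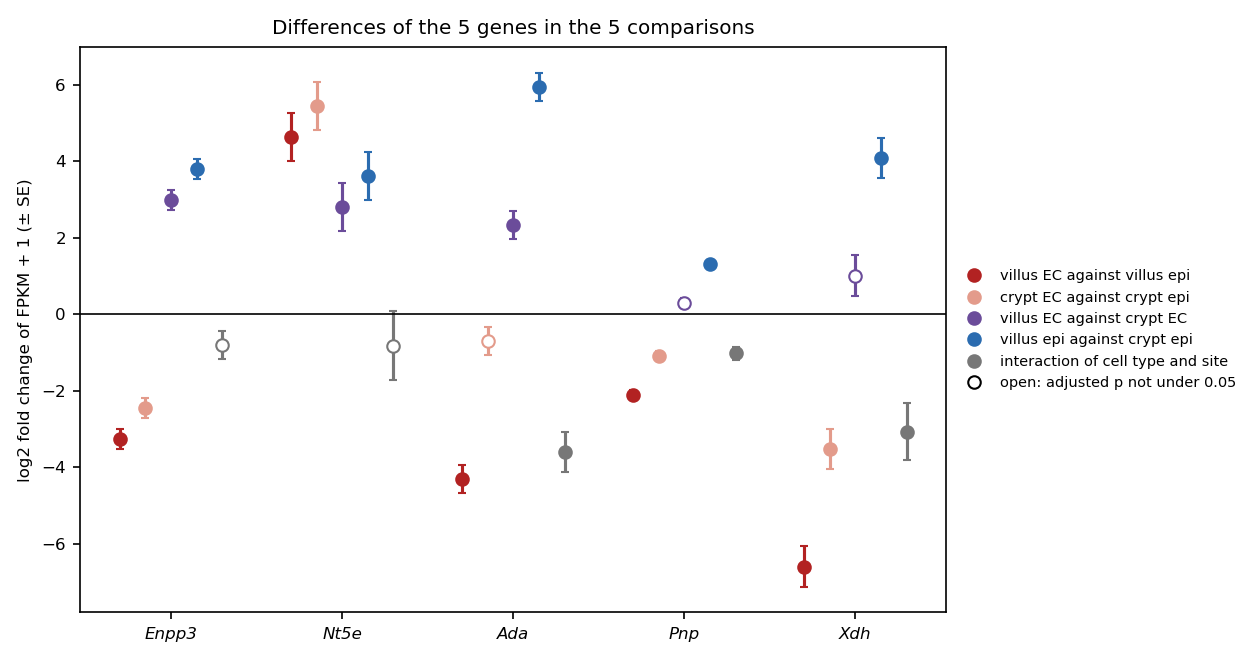
Log2 fold change of FPKM + 1 with its SE for the 5 genes in the 4 comparisons of groups and the interaction; filled points passed an adjusted p of 0.05 and open points did not. Nt5e is the only gene with positive values in both comparisons of EC with epi, and no interaction is above 0.

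Within a library, the order of the 5 genes turned over between the cell types. Nt5e had the highest FPKM of the 5 in all 4 villus EC libraries and in 3 of 4 crypt EC libraries, and the lowest in every epi library. In crypt EC replicate 1, Pnp was highest. In villus epi, Enpp3 was highest in replicates 1 and 2 and Xdh in replicates 3 and 4, with medians of 824 FPKM for Enpp3 and 862 FPKM for Xdh. In crypt epi, Pnp was highest in all 4 libraries.

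EC libraries can carry RNA of enterocytes, so the EC level of each gene was set beside that of enterocyte markers, as a percentage of the epi mean. In the villus, EC libraries held 10.2% of the epi level of Enpp3, 5.26% of Ada, 23.0% of Pnp and 0.898% of Xdh. The 15 enterocyte markers held a median of 0.802%, with a range of 0.329% to 115%. Of these markers, 13 stood at a lower percentage than Enpp3, 12 lower than Ada, 14 lower than Pnp and 9 lower than Xdh. The replicates moved in step for some genes: Ada, Xdh and Enpp3 were highest in villus EC replicates 2 and 3, and so was the enterocyte enzyme Alpi, at 1.22% and 0.692%, against 0.119% and 0.155% in replicates 1 and 4. Most of the 15 markers did the same, but not all. Apoa1 and Apob were highest in replicate 4, and Sis and Slc15a1 in replicates 3 and 4. The part of enterocyte RNA in the EC levels of the 4 genes was not tested. In the crypt, EC libraries held 18.1% of the epi level of Enpp3, 54.6% of Ada, 46.3% of Pnp and 6.25% of Xdh, beside a marker median of 8.28%.

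**Figure D3:**
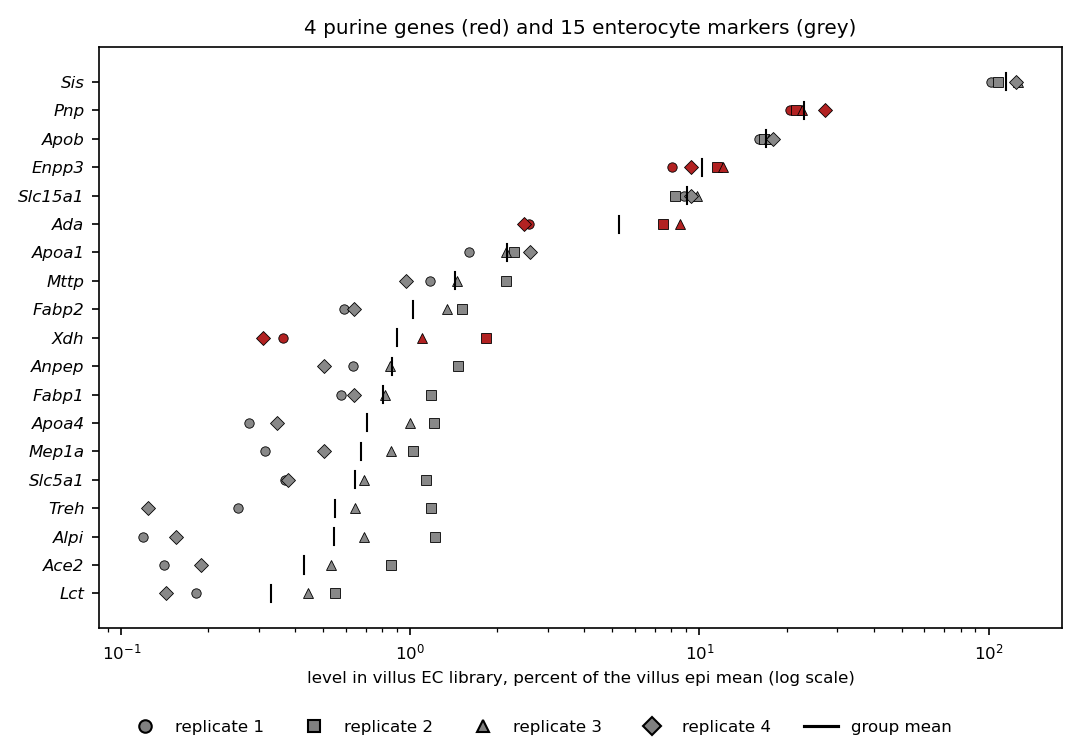
Level in each villus EC library as a percentage of the villus epi mean (log scale) for Ada, Enpp3, Pnp and Xdh (red) and for 15 enterocyte markers (grey); symbols stand for replicates. Pnp at 23.0%, Enpp3 at 10.2% and Ada at 5.26% stand above most markers, and Xdh at 0.898% stands among them.

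The converse question applies to Nt5e, whose epi level was 4.76% of the EC mean in the villus and 0.647% in the crypt. The 7 EC markers stood at a median of 0.477% in villus epi, with a range of 0.223% to 3.88%, and at 0.176% in crypt epi, with a range of 0.0291% to 3.67%. In villus epi replicate 1, Nt5e stood at 10.8% of the EC mean. The EC markers of that library went both ways within its group: Reg4 and Slc18a1 were lowest there, Chga and Chgb second highest. The part of EC RNA in this value was not tested. In the other 3 villus epi libraries Nt5e stood at 3.26%, 2.86% and 2.10%. Intraepithelial lymphocytes also carry CD73, and villus epi replicate 1 had a lymphocyte marker sum of 15.6 FPKM, against 36.1, 4.16 and 6.24 FPKM in replicates 2 to 4. Over the 12 lymphocyte markers the sums were 4.47 to 6.90 FPKM in villus EC, 4.16 to 36.1 FPKM in villus epi, 5.40 to 6.58 FPKM in crypt EC and 4.89 to 6.92 FPKM in crypt epi. Of these markers 3 could be tested, and none passed the threshold in any of the 5 comparisons. No marker was at 0 in all 4 libraries of a group, and the part of lymphocyte RNA in the Nt5e values was not tested. Stromal and endothelial cells carry CD73 too, and their 8 markers summed to 17.8 to 27.2 FPKM in villus EC, 5.09 to 159.977 FPKM in villus epi, 22.2 to 39.9 FPKM in crypt EC and 3.43 to 4.41 FPKM in crypt epi. These sums were higher in EC than in epi, apart from villus epi replicate 2, and in EC they were mostly Pecam1, at 16.7 FPKM in villus EC and 20.9 FPKM in crypt EC on average. Their part in the Nt5e level was not tested. Enpp3 is known as a surface marker of basophils and mast cells. The 3 of 8 mast cell and basophil markers with values summed to 6.94 to 10.5 FPKM in villus EC, 1.14 to 2.94 FPKM in villus epi, 26.4 to 39.2 FPKM in crypt EC and 39.3 to 46.3 FPKM in crypt epi. These sums are almost all Kit, and Fcer1a and Ms4a2 did not exceed 0.427 FPKM in any library, so the sums do not track these cells. Their part in the Enpp3 level was not tested.

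Around the 5 genes, 7 lists of purine genes were followed, some of which include them. The list counts below stand beside the shares over all genes tested. Those were 40.6% higher and 21.6% lower in villus EC against villus epi. In villus epi against crypt epi they were 19.6% higher and 35.4% lower. Signed values in parentheses are log2 differences of FPKM + 1. A list of ecto-nucleotidases and phosphatases had 10 tested genes, which apart from Cd38 strip phosphate from extracellular nucleotides. Of these 10, 2 were higher and 6 lower in villus EC against villus epi, with a median of -1.77. Beside Nt5e, the other higher gene was Entpd3, at 1.94 ± 0.676 FPKM in villus EC and 0.724 ± 0.468 FPKM in villus epi. The lower genes included the brush border alkaline phosphatases Alpi, at 25.6 ± 24.3 FPKM in villus EC and 4685 ± 2038 FPKM in villus epi (-7.94, adjusted p = 3.512e-08), and Akp3 (-6.41, adjusted p = 0.0002375). Entpd2, an enzyme that cleaves extracellular ATP, was lower too (-3.17, adjusted p = 1.955e-07). In villus epi against crypt epi, 6 of the 10 rose and 1 fell, with a median of 1.37. The gene that fell was Cd38 (-2.04, adjusted p = 0.01021). Of the 8 tested genes besides Enpp3 and Nt5e, 4 rose and 1 fell there.

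Nucleoside transporters divided by type between the cells of the villus. Slc29a1, the equilibrative transporter ENT1, stood at 133 ± 8.80 FPKM in villus EC, 4.86 ± 4.44 FPKM in villus epi, 151 ± 9.02 FPKM in crypt EC and 47.4 ± 5.54 FPKM in crypt epi. It rose in villus EC against villus epi (4.77, adjusted p = 3.222e-09) and fell in villus epi against crypt epi (-3.30, adjusted p = 3.243e-07), with an interaction of 3.12 (adjusted p = 4.904e-05). The sodium-driven concentrative transporters were lower in villus EC against villus epi. Slc28a1 averaged 0.518 ± 0.618 FPKM in villus EC and 123 ± 68.8 FPKM in villus epi (-6.07, adjusted p = 1.376e-07). Slc28a2, the purine-preferring CNT2, averaged 1.23 ± 0.837 FPKM in villus EC and 55.7 ± 39.6 FPKM in villus epi (-4.52, adjusted p = 6.447e-08), and rose in villus epi against crypt epi by 4.80 (adjusted p = 4.901e-08). Slc28a3, a further concentrative transporter, averaged 0.305 ± 0.185 FPKM in villus EC and 2.36 ± 0.741 FPKM in villus epi (-1.35, adjusted p = 2.079e-05). Like Slc29a1, it fell in villus epi against crypt epi, where it averaged 12.3 ± 1.79 FPKM (adjusted p = 4.037e-07). All 7 tested transporters were called in the villus comparison, the 4 Slc29 genes higher and the 3 Slc28 genes lower in EC. Over all genes tested, 62.2% were called there. Slc29a2 was near the floor, at 0.689 ± 0.194 FPKM in villus EC and 0.0779 ± 0.156 FPKM in villus epi.

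The 2 cyclic AMP-raising adenosine receptors also lay in different cells. Adora2a averaged 48.6 ± 7.13 FPKM in villus EC, 0.982 ± 1.01 FPKM in villus epi, 57.6 ± 2.65 FPKM in crypt EC and 1.22 ± 0.376 FPKM in crypt epi. It rose in EC against epi in the villus (4.77, adjusted p = 4.549e-10) and in the crypt (4.74, adjusted p = 1.211e-09). Adora2b averaged 0.483 ± 0.313 FPKM in villus EC, 97.0 ± 42.9 FPKM in villus epi, 1.30 ± 0.748 FPKM in crypt EC and 8.33 ± 1.92 FPKM in crypt epi. It fell in EC against epi in the villus (-5.93, adjusted p = 6.429e-10) and rose in villus epi against crypt epi (3.28, adjusted p = 7.6e-07). EC libraries held Nt5e, Slc29a1 and Adora2a at higher levels, and villus epi libraries held Ada, Slc28a2 and Adora2b at higher levels. Of 12 tested adenosine and P2 receptors, 5 were higher and 4 lower in villus EC against villus epi, with a median of 0.22. Over all genes tested, 40.6% were higher and 21.6% lower, with a median of 0.33, so the share of higher receptors was close to that of all genes.

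**Figure D4:**
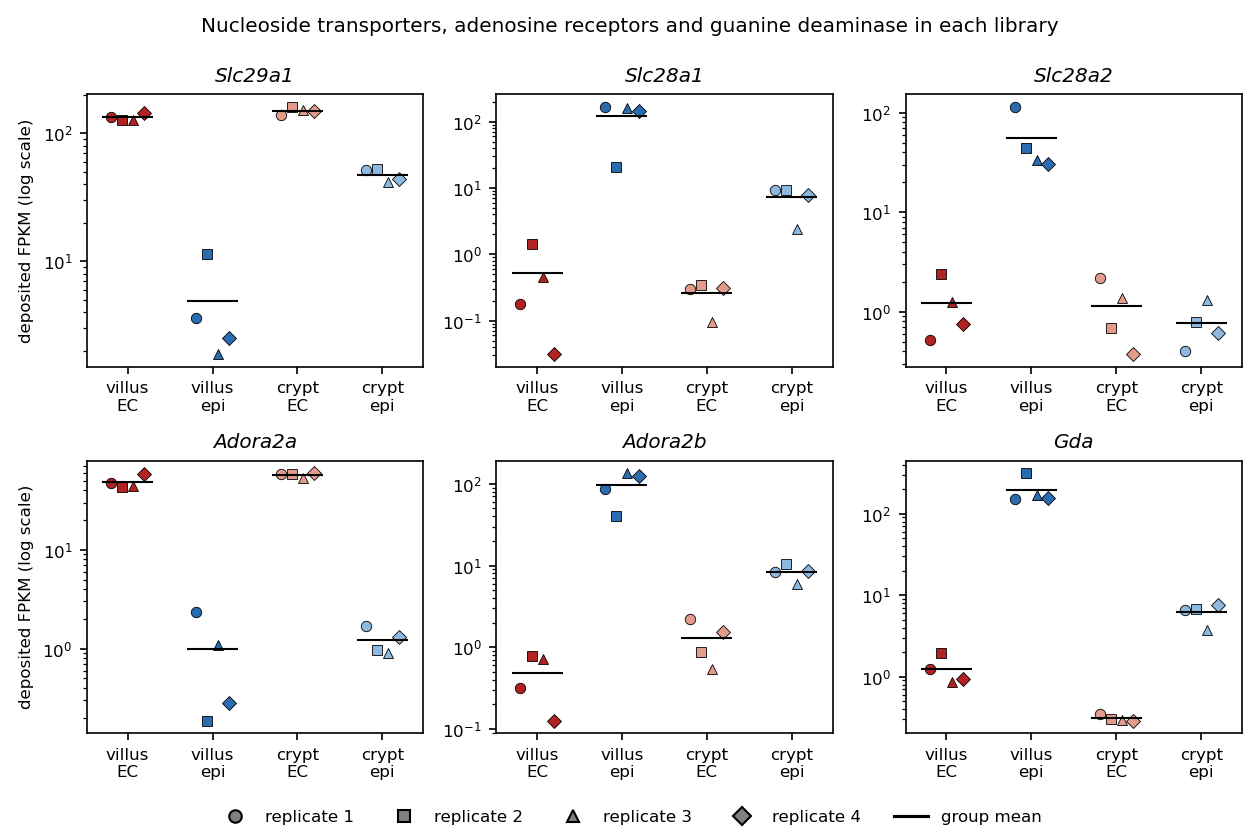
Deposited FPKM (log scale) of the transporters Slc29a1, Slc28a1 and Slc28a2, the receptors Adora2a and Adora2b and the guanine deaminase Gda in each library; symbols stand for replicates and black lines for group means. Slc29a1 and Adora2a are highest in EC libraries, and Slc28a1, Slc28a2, Adora2b and Gda in villus epi libraries.

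Inside the cell, 12 breakdown enzymes were tested, Ada, Pnp and Xdh among them. Of the 9 others, 6 were higher and 3 lower in villus EC against villus epi, so the breakdown list did not move one way. The 6 include Nt5c, which rose by 0.34 with overlapping libraries, where the median of all genes was 0.33. Gda, which turns guanine into xanthine upstream of Xdh, averaged 1.25 ± 0.504 FPKM in villus EC and 197 ± 78.4 FPKM in villus epi (-6.42, adjusted p = 9.33e-12). Ampd2, an AMP deaminase, averaged 103 ± 11.3 FPKM in villus EC and 10.3 ± 7.05 FPKM in villus epi (3.68, adjusted p = 3.549e-05). In villus epi against crypt epi, 2 of these 9 were higher and 6 lower. Gda was higher there (4.75, adjusted p = 3.727e-10) and Ampd2 lower (-2.47, adjusted p = 0.001536, and -1.63 without villus epi replicate 2).

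Of 5 tested genes for urate formation and transport, Xdh among them, 1 was higher and 3 lower in villus EC against villus epi. In villus epi against crypt epi, 4 were higher and 1 lower. Of the 4 genes besides Xdh, 1 was higher and 2 lower in the first comparison, and 3 were higher and 1 lower in the second. Abcg2, an apical exporter of urate, averaged 78.5 ± 1.84 FPKM in villus EC and 348 ± 108 FPKM in villus epi (-2.08, adjusted p = 3.677e-08). Slc2a9, a urate transporter, averaged 6.81 ± 1.55 FPKM in villus EC and 35.0 ± 2.32 FPKM in villus epi (-2.23, adjusted p = 5.738e-09). Uox, the urate oxidase that mice retain, was the gene that went the other way, at 8.29 ± 1.32 FPKM in villus EC and 0.570 ± 0.280 FPKM in villus epi (2.57, adjusted p = 2.75e-08).

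Of 12 tested de novo synthesis genes, 9 were higher and 1 lower in villus EC against villus epi, with a median of 1.64, and 1 was higher and 10 lower in villus epi against crypt epi, with a median of -2.84. In crypt EC against crypt epi, 3 were higher and 3 lower, with a median of -0.17. Over all genes tested, 23.2% were higher and 20.0% lower in that comparison. Impdh1, the enzyme that commits IMP to guanine nucleotides, averaged 68.6 ± 5.32 FPKM in villus EC and 2.39 ± 1.29 FPKM in villus epi (4.44, adjusted p = 1.832e-10). Paics averaged 39.2 ± 4.52 FPKM in villus EC and 1.71 ± 0.793 FPKM in villus epi (3.93, adjusted p = 6.519e-11). Gart, which carries several steps of the route, fell by 4.63 on the log2 scale in villus epi against crypt epi (adjusted p = 3.63e-11). The exception was Adss, which takes the first step from IMP towards AMP, with -1.70 in villus EC against villus epi (adjusted p = 1.66e-06). Of 5 salvage genes, 1 was higher and 2 lower in villus EC against villus epi, and these counts depended on scaling: 0 were higher with median-ratio scaling, and 2 were higher and 1 lower with scaling to a common total. Aprt, which recovers adenine, averaged 51.4 ± 1.89 FPKM in villus EC and 635 ± 58.8 FPKM in villus epi (-3.60, adjusted p = 1.054e-12), and was the salvage gene that rose in villus epi against crypt epi (1.36, adjusted p = 3.819e-08).

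**Figure D5:**
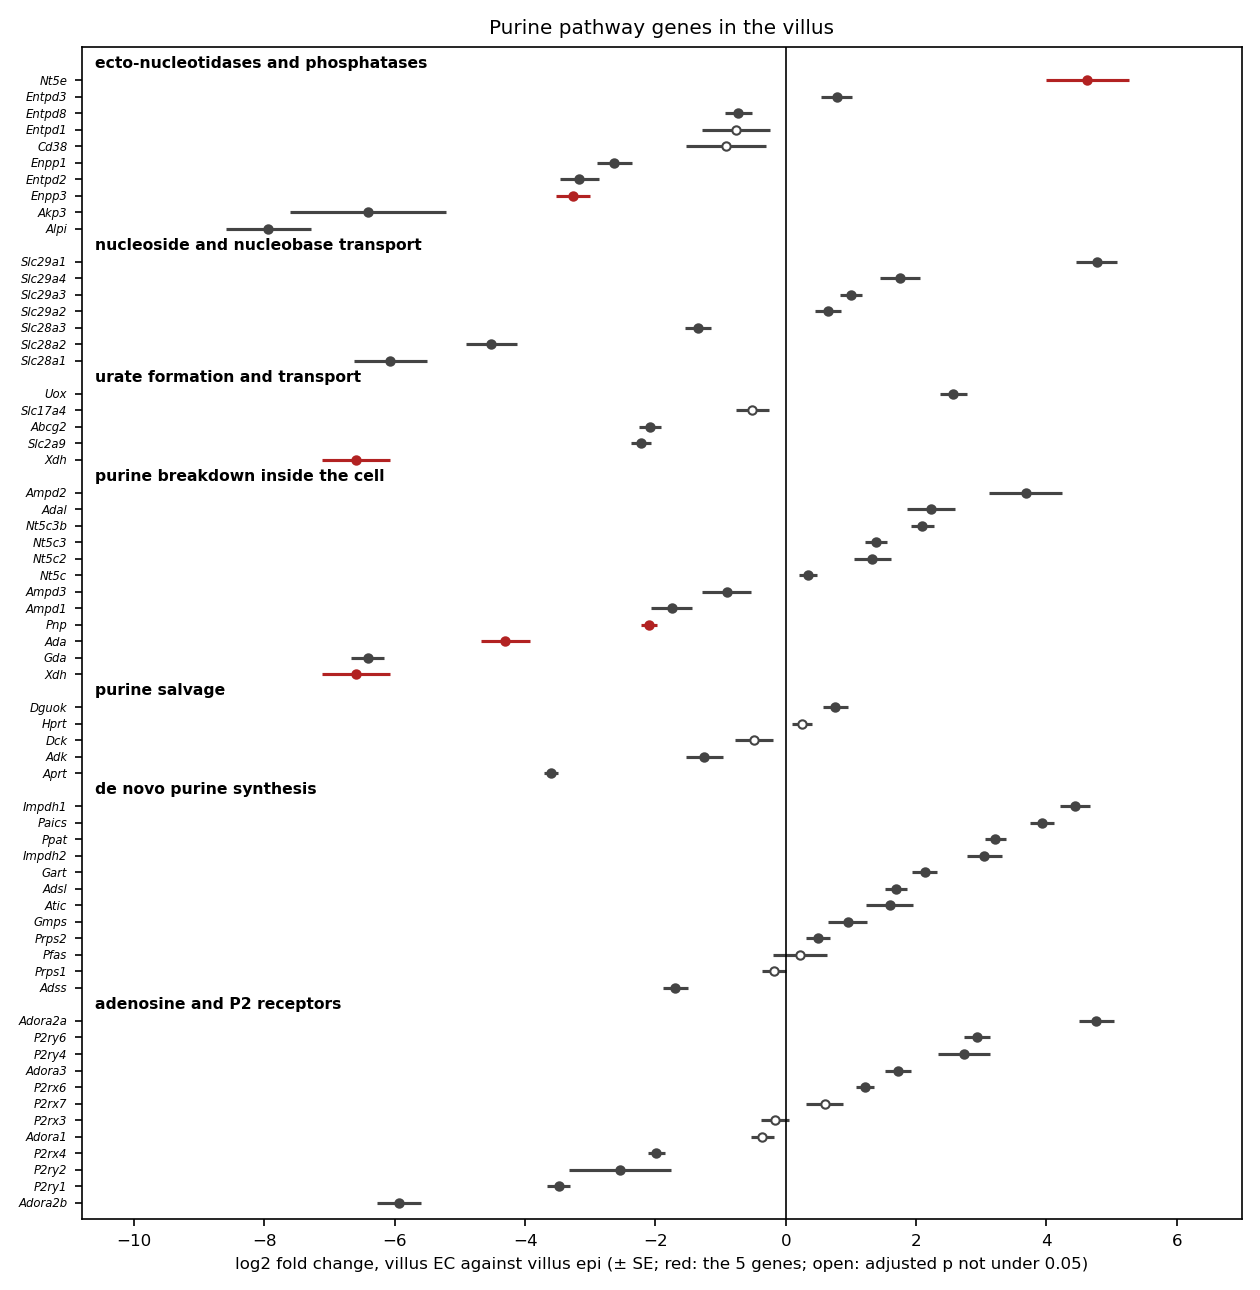
Log2 fold change with its SE in villus EC against villus epi for every tested gene of 7 purine lists, with the 5 genes in red and genes that missed an adjusted p of 0.05 as open points. The values run from -7.94 for Alpi to 4.77 for Slc29a1 and Adora2a, and 9 of the 12 de novo synthesis genes are called above 0.

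The genes whose profiles lay nearest to each of the 5 were found by the root-mean-square log2 difference of centred profiles over 16 libraries, among 10673 other genes. Every library entered this choice, so a low library shared by a gene and its nearest genes is not a separate observation. Enpp3 and Ada were the nearest pair among the 5 themselves (0.933), and Nt5e and Xdh the farthest (5.21). For Nt5e, the nearest genes were Gsdma (0.983), the gut hormone gene Sct (1.10) and Adgrg4 (1.11). Crypt EC replicate 1 was low for these as it was for Nt5e: Gsdma stood at 5.67 FPKM there, against 61.4 to 65.9 FPKM in the other crypt EC libraries, and Sct at 1280 FPKM, against 7219 to 9171 FPKM. For Xdh they were the enterocyte genes Fabp2 (0.427) and Treh (0.491) and the class I histocompatibility gene H2-Q1 (0.525). Villus epi replicate 2, the low library for Xdh, was also low for all 3, with Fabp2 at 4849 FPKM, against 19878 to 24384 FPKM in the other villus epi libraries. For Enpp3 the nearest were Fam3b (0.604), Prap1 (0.622) and Clec2e (0.670), and for Ada they were Bst1 (0.715), Ugt2b38 (0.757) and Ly6m (0.800). Pnp had the closest matches, with the mitochondrial malate dehydrogenase gene Mdh2 (0.176), Serf2 (0.213) and Fam83b (0.227).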

How the data were processed

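RNA was sequenced from 16 libraries in 4 groups of 4 (SMART-Seq HT cDNA with Nextera XT libraries, per the labels' protocols). The authors deposited 1 table of FPKM values per gene. Reads were demultiplexed with bcl2fastq 2.20 and quantified with kallisto and sleuth on mm10, per the submitters' processing notes. The sources used here name neither the annotation release nor the scaling between libraries.

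Genes with FPKM of at least 1 in at least 4 libraries were tested (14089 of 20072; 5983 left out). Values were taken as log2(FPKM + 1), which understates changes of low genes, and 1 limma fit with a trend covered all 4 groups without a replicate block (R 4.3.3, limma 3.58.1). P-values are two-sided, adjusted by Benjamini-Hochberg over all genes tested, and called under 0.05. The fit was tested on simulated data. The labels speak of 4 mice or samples per group without tying libraries to animals. The p-values set each difference against the spread between libraries, estimated jointly over all 4 groups. Whether the libraries stand for separate animals is unknown. Percentages, profile distances, marker sums and motif counts were computed with Python 3.11.15 and pandas 2.3.3, and figures with matplotlib 3.10.9.

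The 5 genes and all lists were chosen with earlier results of these data known. Named besides them were, per purine list, up to 4 called genes with the largest change in villus epi against crypt epi and up to 4 in villus EC against villus epi, and 3 nearest genes per member. Cd38, Entpd2, Entpd3, Slc29a2, Nt5c, Adss, Dcn, Ptprc and Pnp2 were outside that rule and were named after their values were seen. Gene positions are from GENCODE M21. In the promoter table the 50 bases after the start were left out. Alternatives covered pseudocounts of 0.1 and 5, no filter and a filter at 5, median-ratio scaling, scaling to a total of 1000000, fits of the 2 groups compared, a replicate block, an exact permutation test and each library left out. Leaving out crypt EC replicate 1 and villus epi replicate 2 together was added after the data were seen.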

Additional observations from a re-analysis of the deposited data

Results flagged for a closer look

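Among 20 checks, 1 for each of the 5 genes in each group of 4 libraries, 2 found a library far from the rest of its group, and chance gives about 1 in 20. Both concerned Nt5e. Villus epi replicate 1 stood at 53.3 FPKM, against 10.4 to 16.1 FPKM in the other villus epi libraries, a gap of 0.867 of the group's range, above Dixon's critical value for 4 samples. Crypt EC replicate 1 stood at 11.3 FPKM, against 120.2 to 132 FPKM in the other crypt EC libraries, a gap of 0.904 of the range.

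The villus to crypt difference was unequal between the cell types for 3 genes by the interaction test. The difference in EC minus the difference in epi was -3.60 for Ada, -3.07 for Xdh and -1.01 for Pnp on the log2 scale.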

How the results depend on the processing

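Depth is unknown, and the scaling between libraries could not be checked against counts. Of 690 alternative values for 25 tests of the 5 genes, 673 kept direction and side of the threshold, 16 changed side and 1 reversed. Of the 25 tests, 19 never changed. Some alternatives could not change the direction of a difference between 2 groups. Leaving out a library of another group, or fitting the 2 groups alone, keeps that difference and alters only its SE and p-value. Some calls changed through the SE alone. Ada in crypt EC against crypt epi kept -0.70, with an SE of 0.37 in the main fit and 0.14 with its 2 groups alone. Xdh in villus EC against crypt EC kept 1.01, with an SE of 0.53 in the main fit and 0.36 without villus epi replicate 2. What lay behind the changed SE and the other changes was not tested. The reversed value was the Nt5e interaction with a pseudocount of 5 (0.56); that of Enpp3 then passed (-1.13). Without single libraries the interaction ranged from -1.66 to -0.34 for Nt5e and -1.13 to -0.65 for Enpp3, and without both crypt EC replicate 1 and villus epi replicate 2 it was -1.74 for Nt5e and -1.25 for Enpp3, both past the threshold. In villus EC against crypt EC, Pnp passed with median-ratio scaling (0.36), with the 2 groups alone (0.29), by the exact permutation test (0.29, p = 0.02857, the smallest that 4 against 4 libraries can give) and without both libraries (0.29), with a range of 0.21 to 0.35 without single libraries. Xdh there ranged from 0.61 to 1.32 without single libraries and passed without both (1.14). Ada in crypt EC against crypt epi passed with its 2 groups alone and by the exact test (-0.70, p = 0.02857).

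Scaling each library to the same total moved the median of all genes to 0.80 in villus EC against villus epi, 0.51 in crypt EC against crypt epi, -0.23 in villus EC against crypt EC and -0.38 in villus epi against crypt epi; no difference of the 5 genes changed direction with either scaling. It gave 1901 genes lower in villus EC against villus epi, 6109 higher and 1433 lower in crypt EC against crypt epi, and 3503 lower in villus EC against crypt EC, in place of 3046, 3264, 2824 and 2282. EC levels as a percentage of epi became 79.5% for Ada, 26.2% for Enpp3, 67.3% for Pnp and 9.13% for Xdh in the crypt, and 16.0% for Enpp3, 35.4% for Pnp and 3299% for Nt5e in the villus. For Nt5e in the villus that percentage was 2103% from means, 3241% from medians and 1773% to 3650% without single libraries. With the 2 groups alone, 4406 genes were lower in crypt EC against crypt epi, and 2779 were higher and 3891 lower in villus EC against crypt EC. Without both libraries 4253 were lower in crypt EC against crypt epi and 2490 higher in villus EC against crypt EC. Without single libraries these counts ranged from 2419 to 4291 lower in crypt EC against crypt epi, and in villus EC against crypt EC from 1149 to 2694 higher and 1751 to 3848 lower.

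Deviations of same-numbered libraries from their group means correlated between -0.268 and 0.170. Such correlations cannot show whether libraries with the same number came from the same animals. A block by title replicate number changed no call of the 5 genes. A block by library number left 609 genes higher and 1232 lower in villus EC against crypt EC, and Nt5e there missed the threshold (2.90, adjusted p = 0.0753). Of 1876 alternative counts over the purine lists, 1770 were within 1.5 times the reported count.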

Other observations

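Receptors for extracellular nucleotides also differed between villus EC and villus epi. The nucleotide receptors P2ry4 and P2ry6 were higher in villus EC than in villus epi, with P2ry4 at 32.3 ± 2.14 FPKM in villus EC and 4.78 ± 3.03 FPKM in villus epi (2.74, limma adjusted p = 2.021e-05) and P2ry6 at 12.4 ± 1.17 FPKM in villus EC and 0.792 ± 0.466 FPKM in villus epi (2.93, adjusted p = 3.686e-09). In the crypt, P2ry6 was lower in EC, at 6.42 ± 0.586 FPKM in EC and 9.78 ± 2.11 FPKM in epi (-0.52, adjusted p = 0.04294), a call lost without crypt EC replicate 1, and P2ry4 was not called, at 17.9 ± 5.64 FPKM in EC and 25.1 ± 6.78 FPKM in epi (-0.48, adjusted p = 0.3562). The ADP receptor P2ry1 was lower in villus EC, at 2.45 ± 0.607 FPKM in villus EC and 37.2 ± 2.01 FPKM in villus epi (-3.49, adjusted p = 2.306e-10). P2ry1 was lower in the crypt too, at 4.54 ± 1.55 FPKM in EC and 32.0 ± 0.505 FPKM in epi (-2.62, adjusted p = 1.411e-08).

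Entpd3 and Slc29a4 were highest in crypt EC. Entpd3, which cleaves extracellular ATP and ADP, stood at 1.94 ± 0.676 FPKM in villus EC, against 13.3 ± 0.431 FPKM in crypt EC and 0.709 ± 0.447 FPKM in crypt epi (crypt EC against crypt epi 3.11, adjusted p = 4.265e-08). Slc29a4, a transporter of monoamines and adenosine, stood at 3.65 ± 1.50 FPKM in villus EC, against 12.4 ± 2.05 FPKM in crypt EC and 1.20 ± 1.02 FPKM in crypt epi (crypt EC against crypt epi 2.69, adjusted p = 3.272e-06). In villus EC against crypt EC, Entpd3 fell by 2.31 (adjusted p = 3.466e-06) and Slc29a4 fell by 1.56 (adjusted p = 0.001185).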
